A study of Mus musculus with 17 samples.

Results

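Innate lymphoid cells (ILCs) of mouse skin that carried a fate-map reporter were compared between mice labelled as floxed for Gata3 and mice with the gene intact. The comparison is defined by its libraries: 3 bulk RNA-seq libraries labelled fm_pos_Gata3flox were set against 2 labelled fm_pos, 5 of the 17 libraries of the series, and all 54446 genes of the count tables were considered. The cells were sorted as live, lineage-negative, γδTCR-negative and CD90-positive cells from the skin of C57BL/6 mice, and polyA RNA was measured. Both groups carried the fate-map (fm) reporter and were positive for it, so they differed by label only in the Gata3 allele. The label fm_pos means intact Gata3, and fm_pos_Gata3flox means cells from the fate-map line with Gata3 deleted (ΔGata3). The labels do not give the exons that were floxed, the age or sex of the mice, or whether a library held cells of 1 mouse or of several. A fate map marks a cell permanently once its driver gene has been active, so the sort gathers cells by their history and not by their present state. Where nothing names separate animals, the p-values measure the spread between these libraries, which may be technical.

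GATA3 is a zinc finger transcription factor that binds DNA at GATA words. It is needed for the development of ILCs that express the IL-7 receptor and, at a high level, for the identity of ILC2s, the group that makes type 2 cytokines and answers to IL-33 and IL-25. ILC1s and NK cells share natural cytotoxicity receptors, granzymes and interferon programs, and ILC3s make IL-17 and IL-22. Skin ILCs lie near hair follicles and reach them through chemokine receptors and integrins.

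In reporter-positive cells labelled Gata3flox, 4 of 34 cytokine receptor genes fell, among them Il17rb, Il6ra and Il9r, as did the chemokine receptor gene Ccr8, and 5 of 26 NK-associated and 2 of 34 interferon-inducible genes rose, among them Ccl5, Tyrobp, Gzmc and Ifi47. Among 17456 genes tested, 266 (1.52%) were called by the quasi-likelihood test of edgeR at an adjusted p under 0.05 (Benjamini-Hochberg). Of these, 193 were higher (1.11% of the genes tested) and 73 were lower (0.418%). At an unadjusted p under 0.05 there were 3333. The median log2 fold change over all genes tested was 0.18, and it was close to 0 over the 9525 genes with a mean of at least 5 CPM, the library-scaled read count. The spread was estimated over the 10 fate-map libraries, reporter-negative ones included. A fit of the 5 reporter-positive libraries alone with edgeR called 0 of 15443 genes, with 2818 at an unadjusted p under 0.05 and a smallest adjusted p of 0.0943; over the 10 libraries DESeq2 called 1919 and limma-voom with sample weights 56. Leaving out the second fm_pos_Gata3flox library left 66 calls, leaving out the first left 92, and leaving out an fm_pos library gave 430 (without the first) and 489 (without the second), of which 159 and 145 were among the 266. Below, libraries carry the numbers of their labels, intact 1 and 2 and floxed 1 to 3, and a call is lost where the adjusted p was 0.05 or more without 1 of them. Of the genes listed next, limma-voom with sample weights did not call Cd40lg (adjusted p = 0.0891), Cxcr3 (0.102), Gzmc (0.224), Tyrobp (0.267) or Ccl5 (0.46). It also did not call Ifitm3 or any of those with 3 or fewer counts in fm_pos. The fit of the 5 reporter-positive libraries alone called none of them. Of 57 called genes given with values, 21 kept the call without each of the 5 libraries in turn: Il17rb, Cd40lg, Il6ra, Ccr8, Lpcat2, Hsp90aa1, Ifi47, H2-Q7, Cxcr3, Ifitm3, Gzmc, Tyrobp, Ccl5, and 8 genes with 3 or fewer counts in fm_pos (Ncr1, Plek, Pdgfa, Bend4, Igf1, Il13ra1, Ptges and Col3a1).

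The library totals were 29459270 and 40639618 counts in fm_pos, and 23371459, 29039911 and 44098274 in fm_pos_Gata3flox. The shallowest library labelled Gata3flox had 17949 genes with at least 1 count, and the deepest intact library had 14771. Thinned to the depth of the shallowest fate-map library, the intact libraries kept 13803 and 13923 genes and the Gata3flox libraries 17085 to 17819. Reporter-negative libraries showed the same order, with 15130 and 15248 genes in fm_neg and 17942 to 18081 in fm_neg_Gata3flox. Of the 7890 genes that averaged at least 10 CPM in fm_pos_Gata3flox, 24 had 0 counts in both fm_pos libraries and 122 had 0 counts in exactly 1 of them. In the other direction, of 7946 genes at 10 CPM or more in fm_pos, 1 had 0 counts in all Gata3flox libraries. The fm_pos libraries correlated with each other at a Spearman rho of 0.87 across genes, and the Gata3flox libraries at 0.929 to 0.931. Number of genes detected and genotype moved together in these libraries and cannot be told apart, which bears on every gene below that had 0 or few counts in fm_pos.

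Gata3 itself did not separate the groups. It measured 164 and 303 CPM in fm_pos and 154, 235 and 307 CPM in fm_pos_Gata3flox, and the groups overlapped (log2 fold change −0.01 ± 0.35 SE). Each count pools all exons of a gene, so loss of the floxed exons alone may lower it only in part, and this was not tested. The Gata3 log2 fold change was −0.22 ± 0.35 in reporter-negative cells. It was −0.65 ± 0.26 in the tamoxifen-induced deletion described below, and neither passed the test. The targeted gene therefore does not check the Gata3flox label, and every direction below is a direction of libraries so labelled. The plot of Gata3 and the lowered genes shows both groups library by library.

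**Figure D1:**
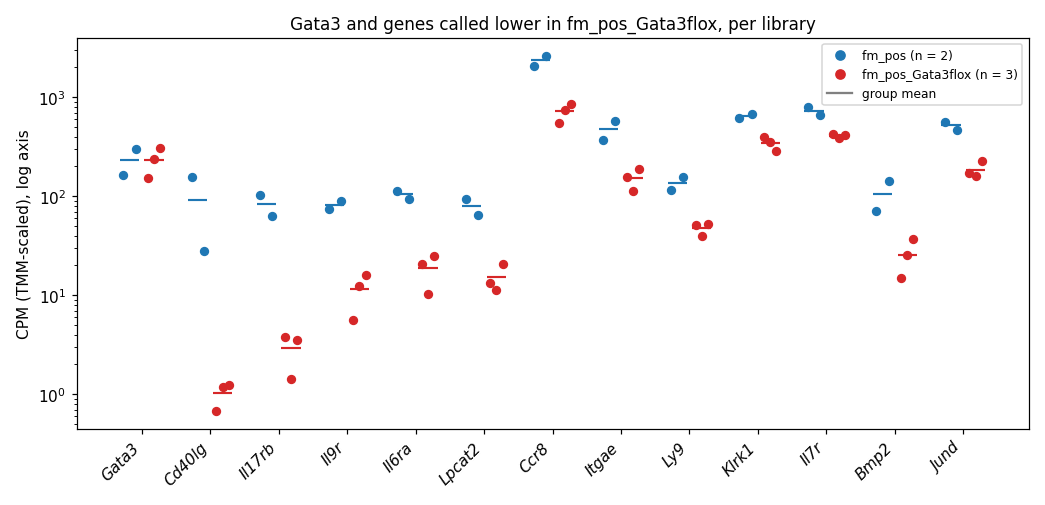
TMM-scaled CPM on a log axis for Gata3 and 12 genes called lower, with a point for each library of fm_pos (n = 2) and fm_pos_Gata3flox (n = 3) and a bar at the group mean. Gata3 overlaps between the groups, and for each of the other genes every Gata3flox library lies below both intact ones.

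Several cytokine receptors were lower. Of 34 genes of this list tested, 4 were called lower and 1 higher, with a median log2 fold change of −0.37. Summed, the list overlapped between the groups, at 7138 and 8848 CPM in fm_pos and 5848, 6537 and 7712 CPM in fm_pos_Gata3flox. Il17rb, the IL-25 receptor chain of ILC2s (mm10 chr14:29996135-30008896, minus strand), measured 104 and 62.6 CPM in fm_pos and 3.82, 1.44 and 3.52 CPM in fm_pos_Gata3flox. Every library labelled Gata3flox was far below both intact ones; the groups did not overlap for 33% of all genes tested, so separation by library alone is common here. The log2 fold change was −4.83 ± 0.53 (adjusted p = 0.0053). Il9r, the receptor of the ILC2 growth factor IL-9 (chr11:32187541-32200279, minus strand), measured 73.8 and 89.2 CPM against 5.69, 12.5 and 16.2 CPM. It fell by 2.83 ± 0.42 on the log2 scale (adjusted p = 0.0149). Il6ra, the IL-6 binding chain (chr3:89864059-89913196, minus strand), measured 114 and 94.8 CPM against 20.8, 10.4 and 24.8 CPM. It fell by 2.49 ± 0.33 (adjusted p = 0.011). Il7r, the receptor chain that keeps ILCs alive, measured 802 and 660 CPM against 425, 386 and 412 CPM. It fell by 0.84 ± 0.18, at the edge of the threshold, and was named after its values were seen. The call of Il9r was lost without floxed 2 (adjusted p = 0.0651), and that of Il7r without intact 1 (0.131) or floxed 1, 2 or 3 (0.125, 0.156 and 0.0708). The higher gene was Il13ra1, a receptor chain for IL-13 and IL-4, with 1 count over both fm_pos libraries and 4.16, 5.18 and 5.54 CPM in fm_pos_Gata3flox. Its ratio was 359.7 with a 95% counting interval of 64.3 to 14230.

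Beyond Il17rb and Il9r, the third of the 3 genes called among 25 tested ILC2 genes was Ccr8, a chemokine receptor of skin-resident lymphocytes (chr9:120092114-120094906, plus strand). Ccr8 was abundant, at 2070 and 2630 CPM in fm_pos and 546, 747 and 861 CPM in fm_pos_Gata3flox. The groups stood apart, and the log2 fold change was −1.71 ± 0.21 (adjusted p = 0.00858). None of the 25 was called higher, and the list median was −0.29. The list sums overlapped, at 6552 and 9154 CPM in fm_pos and 5917, 6912 and 7289 CPM in fm_pos_Gata3flox. Cytokines of this list did not pass the test. Il5 measured 58.9 and 271 CPM against 6.79, 44.6 and 30 CPM (log2 fold change −2.60 ± 0.75, adjusted p = 0.116), and Il13 measured 7.63 and 26 CPM against 2.63, 4.25 and 5.68 CPM (adjusted p = 0.1). For both, each Gata3flox library was below each intact one and the intact libraries differed widely from each other. Areg, the EGF-family ligand amphiregulin, overlapped between the groups at 194 and 385 CPM against 345, 385 and 333 CPM. Rora, a factor needed for ILC2 development, also overlapped, at 1370 and 2680 CPM against 1490, 2000 and 2400 CPM.

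Homing and residency genes split. Of 32 tested, 2 were called lower and 1 higher, with a median of −0.23. Ccr8 is 1 of the lower genes. The other is Itgae, the αE integrin (CD103) that binds E-cadherin on epithelium, at 370 and 575 CPM against 156, 113 and 189 CPM. Every Gata3flox library was below both intact ones, and Itgae fell by 1.63 ± 0.25 (adjusted p = 0.017). Cxcr3, a chemokine receptor of type 1 lymphocytes, measured 7.17 and 5.72 CPM against 45.6, 34.4 and 44 CPM. It rose by 2.68 ± 0.37 (adjusted p = 0.011), and its ligand gene Cxcl10, named after its values were seen, rose by 1.97 ± 0.33 from 61 and 56.8 CPM to 172, 273 and 246 CPM. Itgb7, the integrin chain that pairs with αE, measured 947 and 884 CPM against 294, 278 and 664 CPM and did not pass the test (adjusted p = 0.141). Calls were lost for Itgae without floxed 1 or 2 (0.0622 and 0.0561) and for Cxcl10 without intact 1 or 2 or floxed 2 (0.0533, 0.0576 and 0.0786).

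Costimulation and signalling genes were among the lower ones. Cd40lg, the ligand of CD40, was the only called gene of 27 tested in the TNF and TNF receptor families and had the lowest log2 fold change of all called genes. It measured 155 and 27.9 CPM in fm_pos and 0.679, 1.19 and 1.23 CPM in fm_pos_Gata3flox. The intact libraries differed widely from each other, and both lay well above all Gata3flox libraries (log2 fold change −6.45 ± 0.68, adjusted p = 0.0053). Both called genes of the 26 tested inhibitory and costimulatory receptors belonged to the SLAM family of homophilic lymphocyte receptors. Ly9 measured 116 and 158 CPM against 51.3, 39.7 and 52 CPM and fell by 1.53 ± 0.22 (adjusted p = 0.0124). Cd84 measured 194 and 197 CPM against 86.6, 78.6 and 103 CPM and fell by 1.13 ± 0.18. The cytokine gene Il2 (72.1 and 86.6 CPM against 33.6, 36.2 and 34.6 CPM) fell by 1.19 ± 0.22. Il2 and Cd84 were named after their values were seen. Calls were lost without floxed 1 or 2 for Cd84 (0.0656 and 0.0712) and Il2 (0.109 and 0.104), and for Il2 also without intact 2 (0.073) or floxed 3 (0.0576). That of Ly9 was lost without floxed 2 (0.0535).

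CD3 transcripts were measured beside these genes because the gate can hold T cells. Cd3g measured 813 and 206 CPM in fm_pos and 427, 289 and 188 CPM in fm_pos_Gata3flox. Cd3e measured 55.3 and 11.2 CPM against 19.6, 5.72 and 1.41 CPM. The first fm_pos library was highest for Cd3g, Cd3e and Cd40lg, and the groups overlapped for the CD3 genes. None of 18 tested T cell markers was called (median −0.34), Foxp3 had 0 counts in all 5 libraries, and Cd4 and Cd5 had 0 counts in fm_pos. The 19 T cell markers in the files summed to 2597 to 4128 CPM in fm_pos and 2575 to 3169 CPM in fm_pos_Gata3flox. The most abundant T cell marker was Trbc1, a T cell receptor constant gene also transcribed in ILCs, at 488 and 542 CPM against 832, 831 and 867 CPM (adjusted p = 0.0998). In bulk libraries, fewer cells of a type and less RNA per cell cannot be told apart.

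Several lower genes serve metabolism, signalling and stress responses. Lpcat2, an enzyme that makes platelet-activating factor, measured 93.8 and 65.4 CPM against 13.3, 11.4 and 20.9 CPM and fell by 2.39 ± 0.33 (adjusted p = 0.011). Paqr4 (24.3 and 23.4 CPM against 2.16, 2.66 and 2.66 CPM), the G protein subunit gene Gnaz (20 and 31.4 CPM against 2.5, 1.76 and 4.12 CPM) and the Wnt receptor gene Fzd4 (21.2 and 43.2 CPM against 5.9, 5 and 6.83 CPM) fell by 3.25, 3.19 and 2.44 on the log2 scale. These calls were lost without intact 2 or each floxed library for Gnaz (adjusted p from 0.0549 to 0.145) and Fzd4 (0.0576 to 0.123) and without each of the 5 libraries in turn for Paqr4 (0.0558 to 0.138). Ero1l, an oxidase of the endoplasmic reticulum, was the only called gene of 29 tested in glycolysis and hypoxia, at 383 and 511 CPM against 162, 202 and 217 CPM (log2 fold change −1.21 ± 0.22). Acly, which makes the acetyl-CoA for lipid synthesis, measured 183 and 119 CPM against 36.3, 31.3 and 53.5 CPM and fell by 1.90 ± 0.28. Acly was named after its values were seen. Without floxed 1 or 2 the calls of Acly (0.0621 and 0.0613) and Ero1l (0.11 and 0.105) were lost, and without intact 2 that of Ero1l (0.0813).

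Among 30 tested immediate early and stress genes, the AP-1 genes Jund (568 and 469 CPM against 170, 159 and 228 CPM) and Atf3 (718 and 1100 CPM against 239, 290 and 358 CPM) were called lower, and none was called higher. They fell by 1.48 ± 0.24 and 1.62 ± 0.30. Fos, another AP-1 gene, overlapped between the groups at 1910 and 2700 CPM against 1470, 1500 and 2220 CPM. Ltb4r1, a leukotriene B4 receptor, fell by 1.92 ± 0.28 (73.2 and 48.1 CPM against 18.7, 14 and 15.4 CPM). Without floxed 1 or 2 the calls of Jund (0.0817 and 0.0911) and Atf3 (0.112 and 0.118) were lost, as were Jund without intact 1 (0.0506), Atf3 without intact 2 (0.0804) and Ltb4r1 without floxed 2 (0.065). In the same eicosanoid list of 21 tested genes, Ptges, a prostaglandin E synthase, had 1 count in fm_pos and 5.18, 9.1 and 7.48 CPM in fm_pos_Gata3flox.

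Several NK-associated genes were higher. Of 26 tested ILC1 and NK genes, 5 were called higher and 1 lower. The median log2 fold change of the list was 1.68, beside 0.18 over all genes tested. With genes at 0 in a group set to their bounds (a floor of 3 counts over the group), several marker lists had medians higher still. These were fibroblasts (2.47), endothelium (5.57), B cells (4.02), muscle and adipocytes (4.91) and erythroid cells (8.99). In the last 3 of these lists only 6, 8 and 5 genes were tested, with 4, 6 and 2 at 0 counts in fm_pos. The other marker lists had medians below 1.68. Summed, the ILC1 and NK genes overlapped between the groups, at 3397 and 2216 CPM in fm_pos and 5829, 4140 and 3172 CPM in fm_pos_Gata3flox. Gzmc, a granzyme of activated cytotoxic lymphocytes, measured 20.5 and 24.3 CPM in fm_pos and 1420, 653 and 606 CPM in fm_pos_Gata3flox. It rose by 5.32 ± 0.65 (adjusted p = 0.00809). Xcl1, a chemokine of NK cells, measured 27.8 and 7.93 CPM against 299, 263 and 183 CPM and rose by 3.80 ± 0.76 (adjusted p = 0.0432). Tyrobp, the adaptor DAP12 of activating NK receptors, measured 2.89 and 1 CPM against 260, 198 and 125 CPM. It rose by 6.65 ± 0.71 (adjusted p = 0.0053). The groups stood apart for each of these genes. The call of Xcl1 was lost without intact 2 (0.0832) or floxed 1, 2 or 3 (0.109, 0.113 and 0.0576). Gzmc, Xcl1 and Klrk1 below were named after their values were seen.

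Ccl5 and Ncr1 were close to absent in fm_pos. The chemokine gene Ccl5 had 6 counts over both intact libraries and measured 332, 257 and 69.8 CPM in the Gata3flox libraries (log2 fold change 11.25 ± 0.95, adjusted p = 0.00202). Ncr1, the NKp46 receptor of NK cells, ILC1s and some ILC3s, had 0 counts in fm_pos and 18.8, 13.6 and 16.8 CPM in fm_pos_Gata3flox, at least 385.6-fold higher against a floor of 3 counts over the group. The called lower member was Klrk1, the receptor NKG2D, at 618 and 672 CPM against 392, 353 and 289 CPM (log2 fold change −0.90 ± 0.17, adjusted p = 0.0368), a call lost without each of the 5 libraries in turn (0.0511 to 0.111). Defining genes of this program did not pass the test. Tbx21, the master factor of type 1 lymphocytes, measured 45.4 and 13.1 CPM against 40.5, 25 and 46.6 CPM and overlapped. Ifng measured 109 and 12.1 CPM against 155, 61.9 and 20.7 CPM, and Nkg7, a granule protein gene, measured 945 and 629 CPM against 968, 830 and 547 CPM, both with overlap. Eomes, an NK cell factor, had 2 counts in fm_pos and 0.509, 0.252 and 4.73 CPM in fm_pos_Gata3flox.

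**Figure D2:**
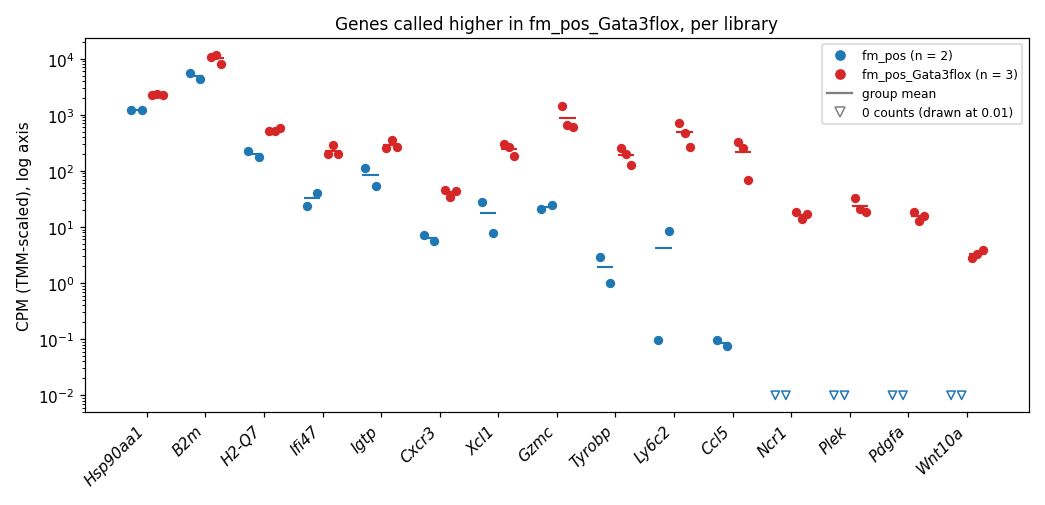
TMM-scaled CPM on a log axis for 15 genes called higher, with a point for each library of fm_pos (n = 2) and fm_pos_Gata3flox (n = 3), a bar at the group mean, and open triangles, drawn at 0.01, for libraries with 0 counts. Every Gata3flox library lies above both intact ones, and Ncr1, Plek, Pdgfa and Wnt10a have 0 counts in both intact libraries.

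Few interferon-inducible genes passed the test. Of 34 tested members of the interferon list, 2 were called higher and none lower, 31 had a positive log2 fold change, and the median was 1.59, or 1.57 with the 9 genes at 0 in fm_pos set to their bounds. The summed level of the list did not separate the groups, at 4585 and 4360 CPM against 4482, 4611 and 4380 CPM. Most of it was Ly6e, a membrane protein gene that was not called (3800 and 3880 CPM against 3040, 3310 and 3130 CPM), and without Ly6e the sums were 616 and 557.4 CPM against 1419, 1440 and 1315 CPM. Ifi47, a GTPase of the immunity-related family induced by interferon-γ (chr11:49076587-49096974, plus strand), measured 23.8 and 40.9 CPM against 196, 291 and 198 CPM and rose by 2.82 ± 0.31 (adjusted p = 0.0053). Igtp, of the same family, measured 113 and 54.2 CPM against 257, 357 and 264 CPM and rose by 1.81 ± 0.36. Other called genes outside the list, named after their values were seen, were the GTPase genes Gbp6 (log2 fold change 3.55 ± 0.66) and Tgtp2 (2.33 ± 0.43), the membrane protein gene Ifitm3 (2.13 ± 0.30) and the checkpoint ligand gene Cd274 (1.12 ± 0.19). B2m, the light chain of MHC class I, measured 5460 and 4340 CPM against 10600, 11700 and 8020 CPM, and the class I gene H2-Q7 measured 230 and 175 CPM against 516, 524 and 574 CPM. They rose by 1.04 ± 0.20 and 1.41 ± 0.19, and with Igtp they were named after their values were seen. H2-Q7 has near-identical class I neighbours, so its reads may be split among them. Calls were lost without floxed 2 for Igtp (0.124), Gbp6 (0.105), Tgtp2 (0.0749), Cd274 (0.0964) and B2m (0.117), without floxed 1 for Igtp (0.0918), Gbp6 (0.0902), Cd274 (0.0564) and B2m (0.109), without intact 2 for Igtp (0.0814), Tgtp2 (0.0814), Cd274 (0.0658) and B2m (0.0928), and without floxed 3 for Igtp (0.0613).

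MHC class II genes had a median of 1.64 with 13 of 14 tested members positive and none called. H2-Ab1 measured 26.6 and 24.4 CPM against 108, 224 and 65.8 CPM, without overlap, and just missed the threshold (adjusted p = 0.0513). The 24 myeloid markers summed to 254.4 to 338.6 CPM in fm_pos and 482.8 to 1087 CPM in fm_pos_Gata3flox, but without Ly6c2 the sums overlapped, at 254.2 and 330.3 CPM against 369.5, 235.8 and 221.3 CPM. Of 16 tested, 9 had a positive and 7 a negative log2 fold change, and Ly6c2 was the 1 called. It is a Ly6C gene of monocytes and of activated lymphocytes, and measured 0.0974 and 8.48 CPM against 712, 478 and 267 CPM (log2 fold change 6.80 ± 1.33, adjusted p = 0.04), a call lost without floxed 1, 2 or 3 (0.097, 0.103 and 0.0513). Csf1r, Adgre1, C1qa, Itgam and Mpeg1 were among 12 myeloid markers with 0 counts in fm_pos, and Itgam, Lyz1, Clec9a and Flt3 had 0 counts in all Gata3flox libraries too. The part of other cells in these genes was not tested.

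Signals to epithelium and hair follicle were lower in 1 case and higher in 3 of 35 tested, with a median of 0.29. Bmp2, a ligand that holds hair follicle stem cells in rest, measured 71.1 and 142 CPM in fm_pos and 15.1, 25.4 and 36.7 CPM in fm_pos_Gata3flox. It fell by 2.05 ± 0.40 (adjusted p = 0.0393) and was named after its values were seen; the call was lost without intact 2 (0.101) or floxed 1 or 2 (0.101 and 0.129). The higher genes were nearly undetected in fm_pos. Pdgfa, a growth factor for dermal cells, had 0 counts in fm_pos and 18.6, 12.6 and 16 CPM in fm_pos_Gata3flox, at least 368.6-fold higher. Wnt10a, a follicle-inducing ligand, had 0 counts against 2.76, 3.24 and 3.92 CPM, at least 80.8-fold higher, a call lost without floxed 1 or 2 (0.0584 and 0.0679). Igf1 had 1 count against 16.8, 6.77 and 5.1 CPM, a ratio of 600.4 (95% counting interval 107.5 to 23740).

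Genes with few counts in the intact libraries were a large share of the higher calls. Of the 193 higher genes, 81 had 0 counts in both fm_pos libraries, 31 had 1 to 3 counts and 81 had more. None of the 73 lower genes had 3 or fewer counts in fm_pos_Gata3flox. An imbalance in the same direction held over all 17456 genes tested, of which 2950 had 0 counts in both fm_pos libraries and 425 in all fm_pos_Gata3flox libraries. The 2 conditions are unlike, since 0 counts in all of 3 libraries is harder to meet than in both of 2. The 112 higher genes with 3 or fewer counts in fm_pos averaged 0.879 to 34.3 CPM in fm_pos_Gata3flox, with a median of 5.05 CPM. In other intact libraries, 6 of the 112 had 0 counts in both fm_neg libraries and 9 in both WT_tamoxifen libraries. The matching shares of all genes tested were not computed. The fm_neg libraries also held fibroblast markers at 9137 to 12150 CPM and keratinocyte markers at 2714 to 4973 CPM. The part of those cells in these genes was not tested. Of the 8 genes named for the highest fold changes, Plek, Sh2d1b1, Bend4 and Spc24 were at 0 in fm_pos. In fm_pos_Gata3flox, Plek, a cytoskeletal adaptor of blood cells, measured 33, 20.9 and 18.5 CPM. Sh2d1b1, the NK adaptor EAT-2, measured 34.5, 22.2 and 22.7 CPM. Bend4 measured 17.4, 17.9 and 18.7 CPM, and the kinetochore gene Spc24 measured 39.2, 8.85 and 4.68 CPM. In that order, the bounds were at least 537.4-fold, 600.2-fold, 427.2-fold and 342.2-fold higher. Tm4sf1, a surface protein gene of endothelium, had 1 count against 8.23, 20.7 and 74 CPM. With limma-voom and sample weights, 0 of these 112 genes were called and 11 of all genes were called higher, against 111 of the 112 with DESeq2. Single-library losses among the named ones were Sh2d1b1 without floxed 2 (0.0535), Spc24 without intact 1 or 2 or floxed 2 (0.0565, 0.0571 and 0.0667) and Tm4sf1 without intact 1 or 2 or floxed 1 or 2 (0.0895, 0.0995, 0.0561 and 0.0898). Without these 112 genes, 81 higher and 73 lower calls remained, with median log2 fold changes of 1.59 and −1.46.

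**Figure D3:**
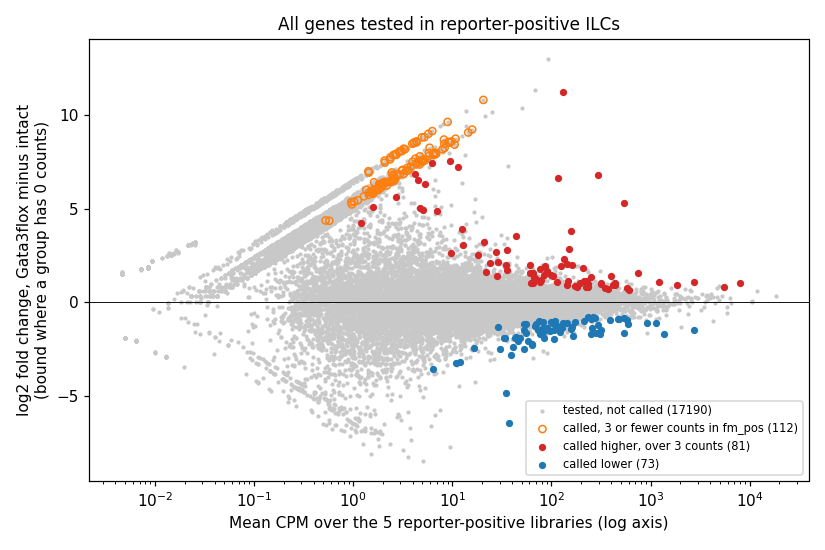
Log2 fold change, Gata3flox minus intact, against mean CPM over the 5 reporter-positive libraries (log axis) for all 17456 genes tested, with a bound in place of the fold change where a group has 0 counts. The 112 called genes with 3 or fewer counts in fm_pos form the upper diagonal bands, and the 81 other higher and 73 lower calls lie mostly above 10 CPM.

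Markers of skin structural cells were low in all 5 libraries and partly higher in the Gata3flox ones. Keratinocyte markers summed to 419.2 to 495.1 CPM in fm_pos and 675.6 to 797.2 CPM in fm_pos_Gata3flox, led by Sfn at 210 and 261 CPM against 348, 461 and 473 CPM (adjusted p = 0.0694). Krt14, a basal keratin, overlapped at 69.3 and 23.5 CPM against 51.4, 40.1 and 72.5 CPM. Of 19 tested keratinocyte markers, Dsg1a was called, with 0 counts in fm_pos, and the call was lost without intact 1 or 2 or floxed 1 or 2 (0.0531, 0.0558, 0.0817 and 0.0706). Fibroblast markers summed to 351.2 to 438.1 CPM against 343.6 to 597.4 CPM, led by Thy1, the sort marker CD90 itself, and Col3a1 was the 1 called gene of 18. Endothelial markers summed to 28.1 to 45.6 CPM against 65.8 to 121.2 CPM, with Cldn5 called of 14 (lost without floxed 1 or 2, 0.0506 and 0.0535) and Pecam1 at 8.6 and 3.19 CPM against 35.2, 26.4 and 41.1 CPM. Dsg1a, Flg, Krt6a, Krt79, Lor and Sbsn, the fibroblast genes Ccdc80, Dpep1, Dpt, Fbln1 and Pdgfra, and the endothelial genes Cldn5, Esam, Flt1, Kdr, Lyve1, Tek and Vwf had 0 counts in fm_pos. The keratinocyte and endothelial sums did not overlap between the groups and the fibroblast sums did. The part of structural cells in Pdgfa, Wnt10a, Igf1 and Tm4sf1 was not tested.

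The other marker lists held no called gene except Il7r. B cell markers summed to 40.0 to 50.1 CPM against 87.9 to 105.8 CPM, led by Ighm, and Ms4a1 and Pax5 had 0 counts in all 5 libraries. Mast cell and basophil markers summed to 60.9 to 115 CPM against 87.3 to 123.7 CPM, led by Kit, with Fcer1a, Ms4a2 and Mrgprb2 at 0 in all 5. Melanocyte and Schwann cell markers summed to 69.7 to 84.0 CPM against 82.9 to 101.1 CPM, led by Mbp, and muscle and adipocyte markers to 1.56 to 3.20 CPM against 25 to 45.4 CPM, led by Rgs5. Erythroid markers spanned 93.2 to 121 CPM against 20.3 to 1395 CPM, and Hba-a1 measured 680 CPM in the second fm_pos_Gata3flox library and 14.9 and 16.6 CPM in the others. The 12 pan-lymphocyte markers summed to 14520 to 16580 CPM against 15290 to 15700 CPM, but 10 of them had a negative log2 fold change, with Il7r called lower. Without Id2 they summed to 12260 and 12160 CPM in fm_pos and 8990, 9443 and 10480 CPM in fm_pos_Gata3flox, lower in each Gata3flox library. Their most abundant member Id2, a factor all ILCs need, measured 2160 and 4500 CPM against 6250, 6520 and 5330 CPM (adjusted p = 0.129).

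Lists without a called gene covered ILC3 and type 17 genes (22 tested, median 0.09), ILC progenitor and early lymphoid factors (23, 0.02), STAT and SOCS signalling (24, 0.17), NF-κB feedback (22, −0.24), survival and apoptosis (27, 0.05), neuropeptides and receptors (12, −0.16) and mitochondrially encoded genes (18, 0.26). Il17a, the defining ILC3 cytokine gene, measured 0 and 24.8 CPM in fm_pos and 161, 33.3 and 6.9 CPM in fm_pos_Gata3flox, so neither group agreed within itself. Il22 stood at 0 and 2.46 CPM against 3.06, 62 and 1.55 CPM. The ILC3 genes with the smallest p were Tnfsf11, which encodes RANKL, at 77.8 and 50.6 CPM against 17.9, 28.2 and 19.9 CPM (adjusted p = 0.0538), Actn2 at 57.4 and 30.4 CPM against 22.2, 11 and 13.3 CPM (adjusted p = 0.11), and Ltb, which encodes lymphotoxin β, at 500 and 476 CPM against 316, 320 and 346 CPM (adjusted p = 0.151). None of the 3, chosen for their small p, passed the test.

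Among early lymphoid factors, Id3, a partner that blocks E proteins, measured 23.7 and 33.5 CPM against 54.7, 87.7 and 111 CPM (adjusted p = 0.0734). Ikzf3, the factor Aiolos, measured 647 and 1010 CPM against 360, 439 and 465 CPM (adjusted p = 0.0805). Lmo4 measured 296 and 446 CPM against 138, 176 and 225 CPM (adjusted p = 0.109). Tcf7, the factor TCF-1 of ILC precursors, measured 182 and 199 CPM against 296, 254 and 272 CPM (adjusted p = 0.207). None passed the test; the groups did not overlap for these 4 genes, as for 33% of all genes tested. In the remaining lists the smallest p belonged to Cd83 (NF-κB feedback, adjusted p = 0.0651), Ramp1 (neuropeptide receptors, adjusted p = 0.0532), Socs5 (adjusted p = 0.0775), Casp8 (adjusted p = 0.0904) and mt-Nd6 (adjusted p = 0.162).

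Proliferation genes were called in 3 of 41 cases, all higher and all with few counts in fm_pos, and the median was 0.40. The summed level of the list was lower in each Gata3flox library, at 4173 and 4456 CPM against 3975, 3645 and 3907 CPM. Ccnb1, the mitotic cyclin B1, had 0 counts in fm_pos and 10.3, 18.2 and 4.7 CPM in fm_pos_Gata3flox. Cenpe, a mitotic kinesin, measured 0.227 and 0.0251 CPM against 25.6, 22.5 and 9.29 CPM, and Cdc6, a replication licensing factor, had 0 counts against 12.1, 7.56 and 3.82 CPM. Without floxed 1 or 2 the calls of Ccnb1 (0.065 and 0.0712), Cenpe (0.102 and 0.105) and Cdc6 (0.0873 and 0.091) were lost, without intact 2 those of Cenpe (0.0691) and Cdc6 (0.0558), and without intact 1 that of Cdc6 (0.055). More abundant members showed no such gap: Mki67, the marker of cycling cells, measured 19.5 and 20.1 CPM against 68.3, 22.9 and 15.4 CPM and overlapped. Single calls came from 4 further lists. In the ribosomal protein list 84 of 89 tested genes had a positive log2 fold change, with a median of 0.49 beside 0.18 over all genes tested. The sums of that list overlapped, at 27970 to 34925 CPM in fm_pos and 33815 to 45959 CPM in fm_pos_Gata3flox. Hsp90aa1, a chaperone, measured 1200 and 1210 CPM against 2220, 2350 and 2300 CPM and rose by 0.93 ± 0.13 (adjusted p = 0.011). Rbpj, the DNA-binding factor of Notch, measured 96.6 and 91.5 CPM against 172, 204 and 159 CPM and rose by 0.92 ± 0.19 (adjusted p = 0.0441) and lost the call without intact 1 or 2 or floxed 1 or 2 (0.088, 0.0995, 0.109 and 0.135). Apoe, a lipid carrier, measured 35.3 and 38 CPM against 94.4, 68.6 and 102 CPM and rose by 1.27 ± 0.21 (adjusted p = 0.023), a call lost without intact 1 or floxed 1 (0.0593 and 0.0656). Rps13 was the called gene of 89 ribosomal protein genes, at 154 and 154 CPM against 280, 292 and 247 CPM (log2 fold change 0.83 ± 0.15), and lost the call without intact 1 or 2 or floxed 1 or 2 (0.0686, 0.0647, 0.0918 and 0.103).

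**Figure D4:**
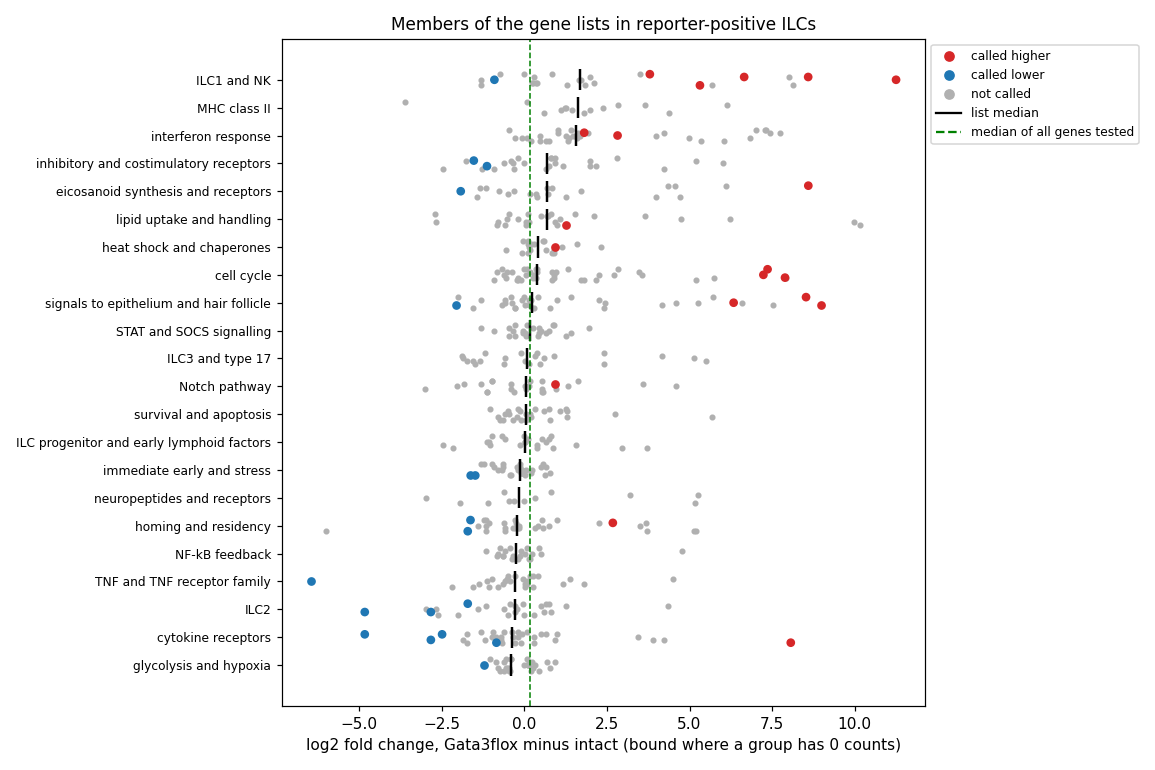
Log2 fold change, Gata3flox minus intact, of each tested member of 22 gene lists, with called genes in colour, a black bar at each list's median and a dashed line at the median of all genes tested. With genes at 0 in fm_pos at their bounds, the ILC1 and NK, MHC class II and interferon lists have medians of 1.68, 1.64 and 1.57, and the cytokine receptor list one of −0.37. Marker lists, of which several have higher medians, are not drawn.

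The same label was compared in reporter-negative cells, fm_neg_Gata3flox (3 libraries) against fm_neg (2), which share no library with the reporter-positive contrast. There 233 genes were called (1.33%). In both sorts 34 genes were called, 12.8% of the reporter-positive and 14.6% of the reporter-negative calls, 21 in the same direction and 13 in opposite ones. Genes that moved the same way in both included Ifi47 (1.94 ± 0.30 in reporter-negative cells), Gzmc (3.44), B2m (1.13) and Cd274 (0.97), and Jund (−1.48 ± 0.24) among the lower ones. Of the 73 genes lower in reporter-positive cells, 46 (63%) had a negative log2 fold change in reporter-negative cells too. Of the 81 higher genes with more than 3 counts in fm_pos, 63 (77.8%) were positive there, against 34 of the 112 (30.4%) with fewer counts. Signs agreed for 57.8% of all genes tested.

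The difference between the sorts was tested as an interaction, which called 176 genes (1.01%), 110 of them among the 266. This contrast contains the reporter-positive one that chose the 266, so a high share among them follows in part from that choice. Of the lower genes, 13 of 73 differed between the sorts. Ccr8 fell in reporter-positive cells and measured 2070 and 2170 CPM in fm_neg and 1760, 2380 and 2570 CPM in fm_neg_Gata3flox, a difference of −1.79 ± 0.31 on the log2 scale (adjusted p = 0.0333). Cd40lg differed by −7.41 ± 0.94 (adjusted p = 0.00856), with fm_neg at 9.32 and 8.34 CPM against 15.3, 16.9 and 19.4 CPM. Klrk1 measured 616 and 742 CPM in fm_neg and 1090, 900 and 872 CPM in fm_neg_Gata3flox, and its difference also passed (adjusted p = 0.0351). For Il17rb the difference did not pass (adjusted p = 0.0994), with 37.2 and 53.1 CPM in fm_neg and 8.4, 10.2 and 18.7 CPM in fm_neg_Gata3flox. Il9r and Il6ra likewise did not (adjusted p = 0.0945 and 0.207). The fm_neg libraries held keratinocyte markers at 2714 to 4973 CPM and fibroblast markers at 9137 to 12150 CPM, against 584.9 to 790.5 and 672.5 to 1470 CPM in fm_neg_Gata3flox, and the part of those cells in the interaction was not tested.

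**Figure D5:**
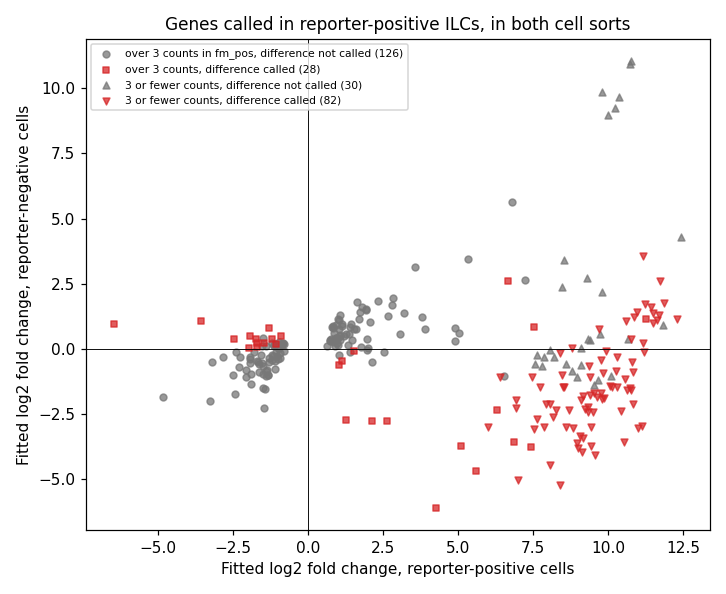
Fitted log2 fold change, Gata3flox minus intact, in reporter-positive cells against that in reporter-negative cells for the 266 genes called in reporter-positive cells, by count in fm_pos and by the test of the difference. Genes with more than 3 counts in fm_pos lie mostly in the lower left and upper right quadrants, and 82 of the 112 with fewer counts passed the test of the difference. That test contains the reporter-positive contrast that chose these genes, so the share is not independent of the choice.

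A second deletion in the series, Gata3fl/fl CreERT2 mice against C57BL/6 mice, both given tamoxifen at 5 mg in corn oil 3 times on alternate days, served as a further set of values (2 libraries each, all skin ILCs, no reporter sort). edgeR called 0 of 13272 genes there (0%), with 915 at an unadjusted p under 0.05. Of the 266 genes, 245 were tested and 117 (47.8%) had the same sign as in reporter-positive cells, against 49.1% of all genes tested in both fits. The log2 fold change was −0.25 ± 1.11 for Il17rb, −0.74 ± 0.47 for Il9r, 1.15 ± 0.45 for Il6ra, 0.34 ± 0.24 for Ccr8 and −0.05 ± 0.64 for Ifi47.

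Sequences before the transcription starts of the leading genes are shown because GATA3 reads GATA words. The search took the word AGATAA as well as AGATAG on both strands, and so too the word TGATAA as well as TGATAG, with overlaps counted separately, over the 250 bases upstream of each RefSeq start (GRCm38.p6), and matches are in capitals; a match on the other strand reads as its reverse complement, such as TTATCT. Each run is 5′ to 3′ on the gene's strand. Among the lower genes, Il17rb lies at chr14:30008897-30009146 (minus), Il6ra at chr3:89913197-89913446 (minus), Ccr8 at chr9:120091883-120092132 (plus) and Il9r at chr11:32200280-32200529 (minus), and the higher gene Ifi47 lies at chr11:49076337-49076586 (plus).
Il17rb: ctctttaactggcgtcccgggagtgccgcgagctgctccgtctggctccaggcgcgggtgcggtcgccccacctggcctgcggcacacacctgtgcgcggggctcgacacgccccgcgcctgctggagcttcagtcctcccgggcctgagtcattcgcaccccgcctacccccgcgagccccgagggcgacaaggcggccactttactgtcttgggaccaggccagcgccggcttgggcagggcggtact
Il6ra: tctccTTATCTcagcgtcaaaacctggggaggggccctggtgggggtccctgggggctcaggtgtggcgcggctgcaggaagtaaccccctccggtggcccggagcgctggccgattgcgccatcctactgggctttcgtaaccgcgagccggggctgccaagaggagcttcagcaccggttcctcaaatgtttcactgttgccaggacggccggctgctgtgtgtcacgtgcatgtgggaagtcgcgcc
Ccr8: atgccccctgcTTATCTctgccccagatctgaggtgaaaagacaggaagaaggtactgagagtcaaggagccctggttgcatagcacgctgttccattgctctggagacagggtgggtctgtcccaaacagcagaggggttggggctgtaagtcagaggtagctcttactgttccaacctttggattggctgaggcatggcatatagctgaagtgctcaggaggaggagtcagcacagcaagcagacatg
Il9r: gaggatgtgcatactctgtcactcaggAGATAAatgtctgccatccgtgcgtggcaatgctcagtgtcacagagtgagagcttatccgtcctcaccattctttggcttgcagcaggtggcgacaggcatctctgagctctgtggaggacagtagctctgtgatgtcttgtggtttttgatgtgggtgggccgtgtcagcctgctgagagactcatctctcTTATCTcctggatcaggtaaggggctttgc
Ifi47: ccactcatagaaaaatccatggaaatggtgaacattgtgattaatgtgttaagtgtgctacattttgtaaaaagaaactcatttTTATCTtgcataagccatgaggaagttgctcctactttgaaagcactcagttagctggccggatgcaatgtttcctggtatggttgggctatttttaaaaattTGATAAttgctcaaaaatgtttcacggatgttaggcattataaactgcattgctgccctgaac

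Il17rb, the gene with the second-lowest fold change, held no word, Il6ra and Ccr8 held 1 each, at −245 and −239 from the start, and Il9r held 2, at −223 and −30. The higher gene Ifi47 held 2 as well, at −166 and −63. Of the lower genes, 60 of 73 matched the RefSeq table and 13 (21.7%) had a word in at least 1 promoter. Of the higher genes, 156 of 193 matched and 30 (19.2%) had one. Over the 11444 tested genes with a match it was 21.2%, close to both, and over all 27025 genes of the table it was 29.7%. A match describes letters in this window and is no binding site, and these libraries hold no binding data.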

How the data were processed

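Bulk RNA-seq of skin ILCs was used from 14 of 17 libraries, of which 10 carried the fate-map reporter. Per the submitters' processing notes, the tools were HISAT2 2.1.0, featureCounts and Subread with the mouse build mm10; the strand setting of the counting is not given in the sources used here. The deposited values are raw counts per gene for 54446 Ensembl genes, made by the authors and not normalised, of which 54409 had a symbol in the GENCODE annotation used here.

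The steps in R 4.3.3 (edgeR 4.0.16) were filterByExpr, TMM factors and a quasi-likelihood fit of the 10 fate-map libraries by group, with the 2 and 3 reporter-positive libraries as a contrast and the interaction with the reporter as another. The tamoxifen libraries had their own fit. A gene was called at a Benjamini-Hochberg adjusted p under 0.05 over all genes tested. CPM are TMM-scaled, but summed CPM of gene and marker lists are not TMM-scaled. Errors are SEs of the fit. Where fm_pos had 0 counts, the fold is a bound against 3 counts over the group; with 1 to 3 counts the ratio has an exact 95% interval. Bounds and intervals cover counting error only, and fitted fold changes of such genes depend on edgeR's prior count of 0.125.

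The members and gene lists were chosen with earlier results of these data known. Genes were named by a rule: Gata3; the 8 highest and 8 lowest log2 fold changes among called genes with a mean of at least 10 CPM and no overlap of the groups, without unnamed, antigen receptor and sex-linked genes; the 3 members with the smallest p from 7 lists and 1 from each other list; and the most abundant member of each marker list. Genes outside the rule are marked as named after their values were seen, or are defining members of a list, chosen in the same way. The called genes Atf3, Ltb4r1, Cdc6, Dsg1a, Col3a1 and Cldn5 also lie outside the rule and were named after their values were seen. Alternatives were DESeq2 1.42.0, limma-voom (limma 3.58.1) with sample weights, RLE factors, other filters, other library sets, a replicate block and leaving out each reporter-positive library. Some genes, among them 1 tied to the fate map, are not reported here. Single-cell libraries were not used here.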

Additional observations from a re-analysis of the deposited data

Results flagged for a closer look

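The response to the Gata3flox label differed between reporter-positive and reporter-negative cells for 22 of the 83 genes whose tests are given, by edgeR's test of the interaction. Over all genes tested it differed for 176 of 17456 (1.01%). Many of the 83 were chosen by their reporter-positive test, which is part of the interaction, so these shares cannot be compared. Each value below is the reporter-positive minus the reporter-negative log2 fold change. It was negative for Cd40lg (−7.41 ± 0.94 SE, adjusted p = 0.00856), Ccr8 (−1.79 ± 0.31, adjusted p = 0.0333) and Klrk1 (−1.40 ± 0.25, adjusted p = 0.0351), whose reporter-negative log2 fold changes were 0.96, 0.08 and 0.49 and did not pass the test. Ifitm3, an interferon-inducible membrane protein gene, differed by 4.90 ± 0.42 (adjusted p = 0.00146): it rose by 2.13 in reporter-positive cells and fell by 2.77 in reporter-negative ones. Apoe differed by 4.01 ± 0.29, with 1.27 and −2.74, both called. Sfn (2.42 ± 0.28) and Id3 (4.09 ± 0.53) were called lower in reporter-negative cells (−1.56 and −2.53) and did not pass the test in reporter-positive ones. The keratinocyte and fibroblast marker sums were also lower in fm_neg_Gata3flox than in fm_neg, and their part in these genes was not tested. Tyrobp differed by 4.03 ± 0.77 (adjusted p = 0.0427), with 6.65 and 2.62, and Ccl5 by 10.09 ± 1.02, with 11.25 and 1.16.

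For the other 13 genes fm_pos had 0 counts or 1 over both libraries, so the fitted difference depends on the prior count and is no bound. It was 9.13 for Ncr1, 9.46 for Dsg1a, 10.11 for Bend4, 10.17 for Il13ra1, 10.37 for Pdgfa, 10.93 for Ccnb1, 11.14 for Plek, 11.48 for Col3a1, 11.6 for Ptges, 12.41 for Wnt10a, 12.79 for Igf1, 12.94 for Tm4sf1 and 14.03 for Cldn5. In reporter-negative cells Ptges and Igf1 were called lower (−3.00 and −3.79). Groups of 2 or 3 libraries were too small to test single libraries as outliers.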

How the results depend on the processing

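In 13 alternative settings none of the 57 called genes given with values changed direction. The 266 calls (193 higher, 73 lower) became 1919 (1387 and 532) with DESeq2, 974 (678 and 296) without a filter and 499 (379 and 120) without the intact reporter-negative libraries. They became 56 (11 and 45) with limma-voom and sample weights and 0 (0 and 0) with the 5 reporter-positive libraries alone. RLE factors gave 256, and a filter at a mean of 5 CPM gave 354 with 129 lower. DESeq2 kept 265 of the 266, limma-voom 50. Higher calls were 193 of 266 with edgeR and 11 of 56 with limma-voom.

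Deviations of same-numbered fm_pos and fm_pos_Gata3flox libraries correlated at 0.0283 and 0.0123. With 2 fm_pos libraries the deviations mirror each other, and the other fm_pos library gave −0.0283 and −0.0123, so pairing cannot be judged from these values. Whether same-numbered reporter-positive and reporter-negative libraries came from the same mice is not in the labels and was not tested. A replicate block gave 131 calls (76 higher), 108 of them among the 266, and 76 interaction calls. Leaving out 1 library gave 66 to 489 calls, 55 to 409 higher and 11 to 125 lower. With 1 fm_pos library left, it is assumed to vary like the other groups. The 176 interaction calls became 1158 with DESeq2, 773 without a filter and 78 to 504 without 1 library. The cause of these shifts was not tested. Genes with 3 or fewer counts in fm_pos have folds known only as bounds or wide intervals.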
